A study of Caenorhabditis elegans with 2 samples.

Results

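The 54 genes described here encode the DNA replication machinery and the cell cycle kinases, cyclins and checkpoint proteins of Caenorhabditis elegans. They were taken as a list of gene names, and all 54 names matched an annotated gene, each of them among the 19973 protein-coding genes of 46890 annotated genes. The list holds 34 origin and fork genes (14 for origin licensing and 20 for the replication fork), 19 cyclin and mitotic genes, and cdc-48.1, which was placed in neither class. A gene was counted as having a peak when a peak summit lay within 500 bp of its annotated 5' end. The measurement was ChIP-seq of HINF-1 in whole young adults at 65 hours, grown from L1 larvae that had been starved after bleaching. The strain was RW12232, which carries the CRISPR insertion st12232[F39B2.1::TY1::EGFP::3xFLAG] I at hinf-1. HINF-1 was precipitated through its GFP tag with an anti-GFP antibody from sonicated chromatin in the 200 to 800 size range. Both samples were biological replicates of this 1 strain and stage, so the 2 replicates form 1 group and no second condition was compared. The labels name a possible control experiment, which was not used here.

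HINF-1 is the worm counterpart of mammalian HINFP, a zinc finger factor known for activating histone H4 genes at the start of S phase. Replication itself is prepared when the origin recognition complex, with its loading factors, places the MCM helicase on DNA. The helicase is then activated with the GINS complex, and polymerases copy both strands behind it on a sliding clamp. Cyclins and their kinases time these steps and drive mitosis, in which the spindle checkpoint delays chromosome separation. In many animals E2F factors act on the genes of the replication machinery, and CHR elements mark genes of the later cell cycle. In adult worms the dividing cells lie in the germ line, whereas whole animals also contain many somatic cells that no longer divide.

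The deposited data are lists of peaks. The conservative list holds 567 peaks that repeated between the replicates and has a median signal value of 64.7. The optimal list holds 630 peaks, and the lists of replicate 1 and replicate 2 alone hold 209 and 272. These 4 lists were thresholded at a global IDR of 0.01 (the irreproducible discovery rate, which is low for peaks that hold their place in the order of 2 peak sets), which is 2 on its −log10 scale. The ranked list of the replicates holds 89784 candidate peaks, of which 696 pass that threshold. Signal values are the peak caller's own and were compared within a list only. Peak lists give no read depth, so the depth behind a value is unknown, and Wilson intervals at 95% confidence below cover the number of genes only.

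Of the 54 genes, 3 had a conservative peak at the 5' end. They were cdc-48.1, pcn-1 and rfc-4, which make 5.56% of the list (Wilson interval 1.91% to 15.1%), against 1.32% of protein-coding genes (263 genes). The same 3 genes were found in the optimal list, where the protein-coding share was 1.48%. In the list of replicate 1 alone 2 members had a peak, cdc-48.1 and pcn-1, against a protein-coding share of 0.546%. In that of replicate 2 alone the 2 members were cdc-48.1 and rfc-4, against 0.666%. Only cdc-48.1 was therefore called in each of the 4 thresholded lists, and 51 of the 54 genes were called in none. Because the genes were listed with results of these data known, these shares are given as a description and without a test.

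pcn-1, the gene of the sliding clamp PCNA that tethers polymerases to DNA, had its conservative peak at IV:4049615-4049844 on WBcel235 (gene on the minus strand). The summit lay 282 bp upstream of the 5' end, outside any annotated gene, and the next nearest 5' end, that of wrt-5, was 1909 bp away. Its signal was 71.0, rank 226 of 567, with a −log10 IDR of 2.51. In the replicates' own ranked lists the signal was 40.9 (rank 199) in replicate 1 and 28.2 (rank 1469) in replicate 2. The peak stood higher in the order of replicate 1 and passed the threshold there alone. rfc-4, a subunit of the clamp loader that opens PCNA and places it on DNA, had its peak at III:6972003-6972232 (gene on the plus strand). The summit was 135 bp upstream, with a signal of 62.5, rank 319 and a −log10 IDR of 2.48. Its signal was 25.24 (rank 912) in replicate 1 and 37.3 (rank 482) in replicate 2, and it passed the threshold in replicate 2 alone. That summit was nearer to the microRNA gene cel-mir-5549, at 33 bp, and it also lay 406 bp from the divergent gene eef-1A.1, which encodes a translation elongation factor. The peak could therefore not be assigned to rfc-4 over its neighbours.

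cdc-48.1 encodes an AAA ATPase that pulls ubiquitin-marked proteins out of complexes, among them the replicative helicase at the end of replication. Its peak at II:10563453-10563682 (gene on the minus strand) had a summit 161 bp upstream of the 5' end. The signal was 129.9, rank 42 of 567, with a −log10 IDR of 3.66 and rank 94 among the 89784 candidates. In the ranked lists of the replicates the signal was 47.5 (rank 147) and 81.8 (rank 87). It was the strongest peak at a member's 5' end in every list. The sequences of the 3 summits are shown because these peaks carry the calls, on the strand of the gene, 5' to 3', as 50 bp either side of the summit. Capitals mark a match to a motif searched, which occurs in the rfc-4 sequence alone (TTCAAA, the other strand of TTTGAA). The windows are IV:4049680-4049780 for pcn-1, III:6972068-6972168 for rfc-4 and II:10563518-10563618 for cdc-48.1, and that of rfc-4 overlaps the exon of cel-mir-5549.
pcn-1: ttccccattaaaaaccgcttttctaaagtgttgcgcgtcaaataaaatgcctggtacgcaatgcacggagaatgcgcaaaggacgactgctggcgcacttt
rfc-4: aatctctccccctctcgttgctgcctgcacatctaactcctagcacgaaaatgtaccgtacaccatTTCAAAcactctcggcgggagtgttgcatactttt
cdc-48.1: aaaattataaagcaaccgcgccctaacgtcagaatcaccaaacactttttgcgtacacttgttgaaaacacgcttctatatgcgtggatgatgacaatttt

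The other 51 genes were then read in the ranked list, which includes candidates far below the threshold. Summits were found there for most genes: 44 of the 54 members (81.5%) had a ranked summit within 500 bp, against 66.6% of protein-coding genes. The median signal of these 44 was 23.5, beside 21.4 over the protein-coding genes with a ranked summit, whose 10th and 90th percentiles were 11.9 and 35.1. Of the 44, 27 were above that protein-coding median and 17 at or below it. Of the 4 members above the 90th percentile, 3 were those already named and the fourth was mcm-4. The 41 ranked members without a conservative peak ranged from 8.90 to 36.2 in signal and from 0.0782 to 0.747 in −log10 IDR, and 10 of them had the lowest IDR value of the list. There was thus a gap between rfc-4, at 62.5 and above the IDR threshold of 2, and the next gene, mcm-4, at 36.2 and far below it. Summits lay upstream of the 5' end in 21 of the 44 genes (47.7%), beside 45.8% of protein-coding genes.

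**Figure D1:**
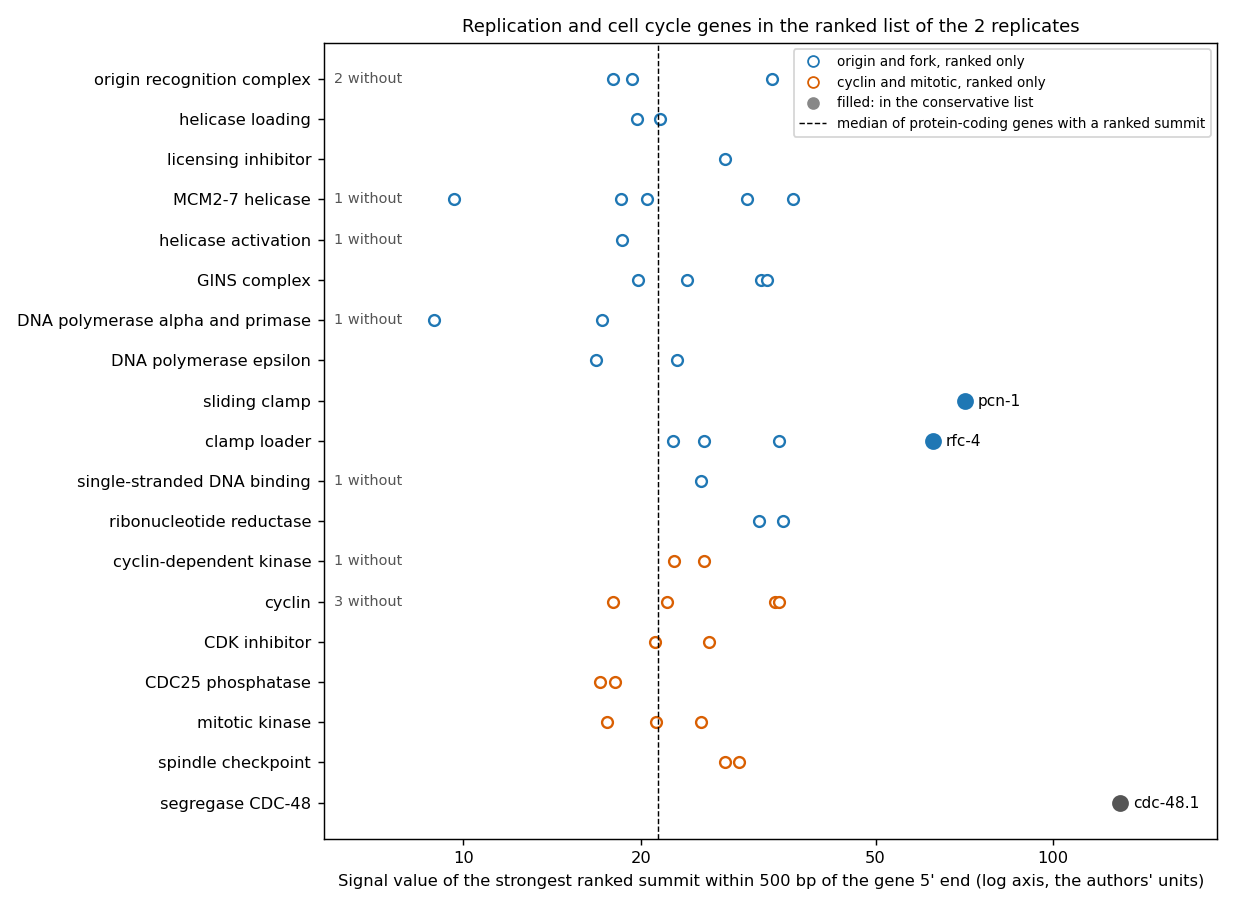
Signal value (log axis) of the strongest ranked summit within 500 bp of the 5' end for each gene, by role; open circles are genes in the ranked list only, filled circles those in the conservative list, and the numbers at the left count genes without a ranked summit. pcn-1, rfc-4 and cdc-48.1 stand at 71.0, 62.5 and 129.9, and the other 41 genes lie between 8.90 and 36.2, around the protein-coding median of 21.4 (dashed line).

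Among the origin licensing genes no thresholded list held a peak for any of the 14 genes, a share whose Wilson interval reaches 21.5%. The interval includes the 1.32% of protein-coding genes with a conservative peak, so finding none among 14 does not set these genes apart. The ranked list held 11 of the 14 (78.6%, protein-coding 66.6%), with a median signal of 20.5 (protein-coding 21.4). Of the 5 origin recognition genes, orc-1 had the strongest candidate at 33.4 (rank 6172, −log10 IDR 0.306). Replicate 1 had a summit of 18.6 there and replicate 2 none. orc-4 and orc-5 followed at 19.3 and 17.9, and orc-2 and orc-3 had no summit in that list. The other ranked list made from both replicates, with 96558 candidates, held a summit of 12.9 at orc-2 and none at orc-3. orc-1 and orc-4 are neighbours on the same strand, with 112 bp between the genes, but their candidates were separate summits. The loading factors cdc-6 and cdt-1 were at 19.7 and 21.5, both near the protein-coding median. gmn-1, the gene of geminin, which holds back the loading factor CDT-1 in animals, was at 27.8 with a replicate 1 summit of 14.5 and none in replicate 2.

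The genes of the MCM helicase were spread widely, with 5 of the 6 between 9.64 and 36.2. mcm-4 was the strongest at 36.2 (rank 4087), with signals of 12.5 (rank 19086) in replicate 1 and 29.9 (rank 1109) in replicate 2. These were different summits, 364 bp downstream of the 5' end in replicate 1 and 188 bp upstream in replicate 2. They therefore do not give the order of one peak in both replicates. The −log10 IDR of the ranked mcm-4 summit, 211 bp upstream, was 0.156. mcm-3 had 30.3, mcm-6 20.5, mcm-7 18.5 and mcm-5 9.64, the last at rank 78883, while mcm-2 had no ranked summit in any list. A conservative peak of signal 53.2 (rank 472) lay 3638 bp from the annotated 5' end of mcm-4. The summit lay downstream, just past the 3' end of the gene, which spans I:2318291-2321817 on the minus strand. It fell within 500 bp of the 5' end of another annotated transcript of that gene. mcm-4 would therefore be the fourth gene called when the 5' ends of all transcripts are used, but not through a peak at its annotated 5' end.

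The 20 fork genes included both called origin and fork genes, pcn-1 and rfc-4, a share of 10% (Wilson interval 2.79% to 30.1%), beside 1.32% of protein-coding genes. The rfc-4 peak could not be assigned to that gene over its neighbours, and no enrichment test was made. In the ranked list 17 of the 20 had a summit, with a median signal of 25.297. The helicase activation genes gave little signal: the kinase gene cdc-7 was at 18.5, at the lowest IDR value of the list, and mcm-10 had no summit in any list. The 4 GINS genes all had candidates, sld-5 at 32.7, psf-2 at 32.0, psf-3 at 23.9 and psf-1 at 19.8. Of the polymerase genes, pole-1 and pole-2, of DNA polymerase epsilon, were at 23.1 and 16.8. The polymerase alpha subunit gene div-1 was at 17.2 and the primase gene pri-2 at 8.90, the weakest of all members, whereas the primase gene pri-1 had no ranked summit.

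Of the 4 clamp loader genes, rfc-3 stood next to rfc-4 with 34.3 (rank 5432, −log10 IDR 0.588), followed by rfc-1 at 25.6 and rfc-2 at 22.7. Both genes of ribonucleotide reductase, the enzyme that makes deoxynucleotides, were above the protein-coding median. rnr-2 had 34.8 (rank 5031). Its replicate values came from different summits, 16.0 in replicate 1 (428 bp downstream) and 22.8 in replicate 2 (113 bp downstream). Its −log10 IDR of 0.747 was the highest among members below the threshold in the ranked list of the replicates. In the other ranked list of both replicates it was 0.981, and that of rfc-3 was 0.987. rnr-1 had 31.7, with 12.3 and 21.2 in the replicates. The single-stranded DNA binding gene rpa-1 had summits in both replicates' own ranked lists, at 13.8 and 22.7, and one of 24.8 in the other ranked list of both replicates, but none in the ranked list used here. Its partner rpa-2 was at 25.297.

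None of the 19 cyclin and mitotic genes had a thresholded peak in any of the 4 lists. With 19 genes the Wilson interval for that share reaches 16.8%, which includes the 5.88% found for the 34 origin and fork genes (Wilson interval 1.63% to 19.1%). It also includes the 1.32% of protein-coding genes with a conservative peak, so finding none among 19 does not set this class apart. The intervals of the classes overlapped, and placing cdc-48.1 with the cyclin and mitotic genes would leave a difference of 0.882 percentage points. In the ranked list the classes lay close together. Summits were found for 28 of the 34 origin and fork genes (82.4%, median signal 23.5, median rank 25544.5) and for 15 of the 19 cyclin and mitotic genes (78.9%, median signal 22.7, median rank 28094).

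Within this class cyb-1 and cyb-2.1, both B cyclin genes, had the strongest candidates. cyb-1, whose product activates CDK-1 for entry into mitosis, had 34.3 (rank 5450, −log10 IDR 0.496). The replicate values came from different summits, 16.8 in replicate 1 (292 bp downstream) and 21.3 in replicate 2 (62 bp upstream). cyb-2.1 had 33.8 (rank 5793), but the replicate signals were 7.17 and 15.2, from different summits 66 bp upstream and 347 bp downstream. Part of the sequence around the cyb-2.1 5' end is not unique in the genome (a share of 0.771 of its 31-base words is). Its close copy cyb-2.2 was at 17.9 and cyb-3 at 22.1. The G1 cyclin genes cyd-1 and cye-1 and the cyclin A gene cya-1 had no ranked summit, apart from candidates of 11.9 in replicate 2 and 17.0 in the other ranked list of both replicates at cya-1. Among the kinase genes cdk-1, which drives mitosis, was at 25.6 and cdk-4, the partner of cyclin D, at 22.7, while cdk-2 had none. orc-5 and cyb-1 are divergent neighbours with 628 bp between their 5' ends, and the stronger candidate was at the cyb-1 side.

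The remaining cell cycle regulators lay between 17.1 and 29.3, around the protein-coding median. The CDK inhibitor genes cki-1 and cki-2 were at 26.1 and 21.1. The CDC25 phosphatase genes cdc-25.1 and cdc-25.2, which remove inhibitory phosphates from CDKs, were at 18.1 and 17.1, both at the lowest IDR value of the list. All 5 mitotic kinase and checkpoint genes had a candidate: the Aurora kinase genes air-2 and air-1 were at 25.34 and 21.2, and the Polo kinase gene plk-1 at 17.5. The spindle checkpoint genes mdf-1 and bub-1 were higher, at 29.3 and 27.8.

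The replicates were compared gene by gene in their own ranked lists. In replicate 1 36 members had a summit (66.7%, protein-coding 47.7%) and in replicate 2 34 (63.0%, protein-coding 45.2%). Of the 54, 27 (50%) had one in both lists, beside 27.8% of protein-coding genes. A further 9 had one in replicate 1 only, 7 in replicate 2 only and 11 in neither. The 7 genes with no candidate in any of the 4 ranked lists were mcm-2, mcm-10, orc-3, cdk-2, cyd-1, cye-1 and pri-1. Spearman's rho between the replicate signals of those 27 genes was 0.518, and 0.323 over 24 genes without the called ones, beside 0.289 over 5544 protein-coding genes. These are correlations across genes, which are not replicates and share the same 2 libraries. Each value was the strongest summit within 500 bp in that replicate's list. The 2 values of a gene could therefore come from different summits, as at mcm-4, rnr-2 and cyb-1. Below the called peaks, a member's strongest signal in one replicate said little about its strongest signal in the other. How far a single summit held its order in both replicates was not tested.

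**Figure D2:**
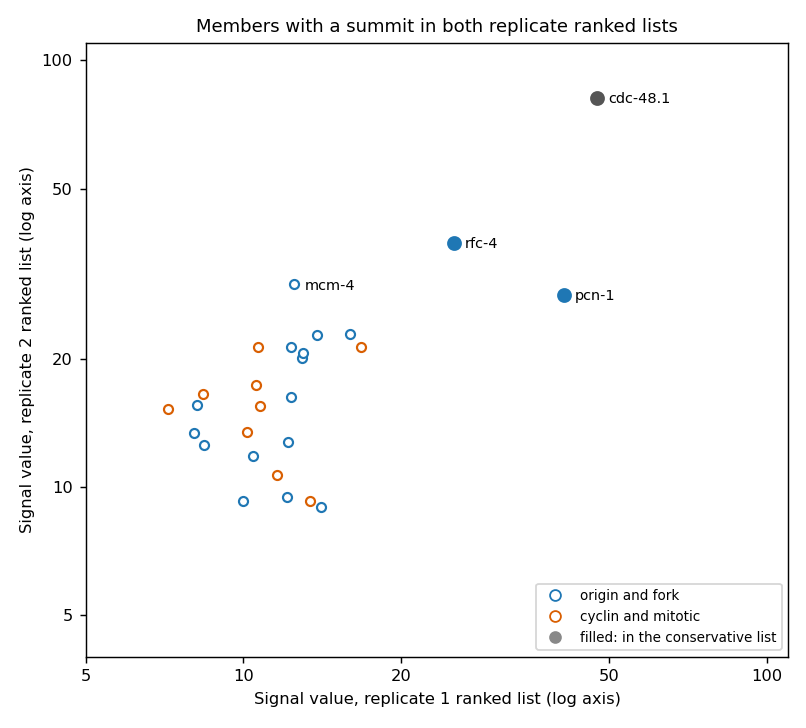
Signal value in the ranked list of replicate 1 (x axis) and replicate 2 (y axis), both on log axes, for the 27 genes with a summit within 500 bp in both lists; filled circles are genes in the conservative list, blue origin and fork genes, orange cyclin and mitotic genes, grey cdc-48.1. The 3 called genes have the highest signals in replicate 1, pcn-1 at 40.9 and 28.2, rfc-4 at 25.24 and 37.3 and cdc-48.1 at 47.5 and 81.8, and in replicate 2 mcm-4, at 29.9, stands above pcn-1. Each value is the strongest summit in its own list, so the 2 values of a gene can come from different summits, as at mcm-4.

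Some conservative summits lay close to members but farther than 500 bp from the 5' end, or within the gene body. The strongest was 645 bp upstream of rpa-2, with a signal of 136.8 (rank 36, −log10 IDR 3.72). It was above the peak of cdc-48.1, was present in all 4 thresholded lists, and lay 584 bp from the 5' end of the long noncoding RNA gene M04F3.7. A summit of 91.8 (rank 103) lay 984 bp downstream of the psf-3 5' end, past the end of the gene, and 352 bp from icd-2. A summit of 66.6 (rank 263) lay 973 bp upstream of pri-1, in the neighbouring gene F58A4.6. Inside members, a summit of 64.9 (rank 281) lay in an intron of cye-1, 1048 bp downstream of the 5' end and 44 bp from the 5' end of a tRNA gene. One of 52.7 (rank 478) lay in a coding exon of rfc-3, 1051 bp downstream, and was in neither replicate's thresholded list. cdc-48.1 had a further summit of 53.5 (rank 465) in a coding exon, 625 bp downstream and 282 bp from the snoRNA gene C06A1.9.

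With these, 3 members (5.56%) had a conservative summit inside the gene, beside 1.26% of protein-coding genes, and 5 (9.26%) had one inside the gene or within 500 bp, beside 2.17%. The members are longer, with a median of 2707 bp beside 2027 bp over protein-coding genes, and the part of gene length in this count was not tested. A conservative summit lay within 1000 bp of the 5' end of 6 members (11.1%), beside 2.04% of protein-coding genes. Over all members the median distance to the nearest conservative summit was 52649 bp (135 to 301730), beside 77237 bp. The nearest to cdk-1 was 1450 bp away, with a signal of 68.1.

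**Figure D3:**
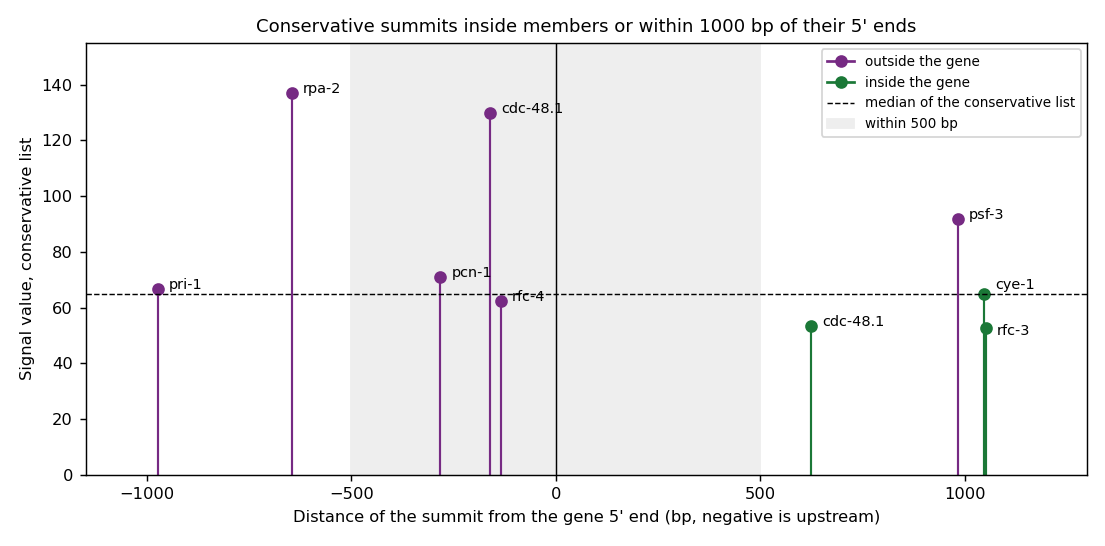
Conservative summits within 1000 bp of a member's 5' end or inside a member: distance from the 5' end in bp along the gene (x axis, negative is upstream) and signal value (y axis), with the window of 500 bp shaded and the list's median of 64.7 dashed. Only cdc-48.1, pcn-1 and rfc-4 have a summit inside the window, all upstream, and the summit of highest signal, 136.8 at rpa-2, lies 645 bp upstream.

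A wider list of 100 replication and cell cycle gene names, of which 83 matched an annotated gene, gave a similar picture. Of the 83, 4 had a conservative peak (4.82%, Wilson interval 1.89% to 11.7%, protein-coding 1.32%): 3 of 28 replication genes and 1 of 55 cell cycle genes. tim-1, of the fork protection complex, had 76.0, the topoisomerase II gene top-2 66.9, the centrosome gene spd-5 61.5, and ctf-4, which links helicase and polymerase, 57.8. In every case another gene's 5' end lay within 500 bp, and in 3 of them it was the nearer: sls-2.8 at 34 bp for tim-1, npp-3 at 72 bp for top-2 and eef-1G at 9 bp for ctf-4. In the optimal list ctf-4 was missing and 3 genes were left. Replicate 1 alone called top-2 (36.5) and replicate 2 alone tim-1 (53.3). Ranked summits were found for 70 of the 83 (84.3%, protein-coding 66.6%), with a median signal of 28.1 (protein-coding 21.4).

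The histone genes, expressed in the same S phase programme, had thresholded peaks far more often and far stronger ones. Of 65 annotated genes with core histone symbols, 18 (27.7%, Wilson interval 18.3% to 39.6%) had a conservative peak, at 11 distinct peaks, since many histone genes are divergent pairs that share a summit. The interval takes each gene as separate, which genes with a shared summit or repeated sequence are not. Counted by gene, so that a shared peak counts for both genes of a pair, the signals of the 18 genes ran from 66.7 to 2984 with a median of 379.1. Of the 18 genes, 11 were above cdc-48.1 and 15 above pcn-1. The histone peaks below cdc-48.1 were those at his-47 (103.5 and 67.4), his-3 and his-4 (95.8), his-45 (91.6), and his-17 and his-18 (66.7). All 3 called members were thus in the lower part of the range of the histone peaks or under it. The optimal list held 22 core histone genes, the lists of replicate 1 and replicate 2 alone 14 and 20. In the ranked list the order was the other way, with a summit at 38 of the 65 core histone genes (58.5%) beside 81.5% of the members, but the median signal of those 38 was 66.7 beside 23.5. Of 9 linker histone genes, 5 had a conservative peak, with a median of 679.2. The strongest histone peaks were those of his-67 and his-68, which share a summit of 2984 (rank 3), of his-37 at 1740 (rank 4) and of the linker gene hil-4 at 1252 (rank 5).

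Core histone genes are repeated in the genome, which touches this comparison. The median share of genome-unique 31-base words within 250 bp of their 5' ends was 0, and only 4 of the 65 genes reached 0.9, of which 2 had a conservative peak and all 4 an optimal one. Of the members, 52 of 54 reached 0.9. How the authors' alignment treated repeated sequence is not given in the sources used here, and its part in the histone shares was not tested. The histone starts also had a higher GC content, with a median of 50.1% beside 37.5% for the members. Among the called genes pcn-1 had 44.1%, cdc-48.1 37.7% and rfc-4 34.9%. The spindle checkpoint gene mdf-1 is a direct neighbour of histone genes: the peak of his-37 was the conservative summit nearest to it, 2789 bp away with a signal of 1740. The divergent histone genes his-35 and his-41 lie between them and shared a summit of 50.8 in the optimal list. The mdf-1 candidate stayed at 29.3, with 10.7 in replicate 1 and 21.3 in replicate 2.

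**Figure D4:**
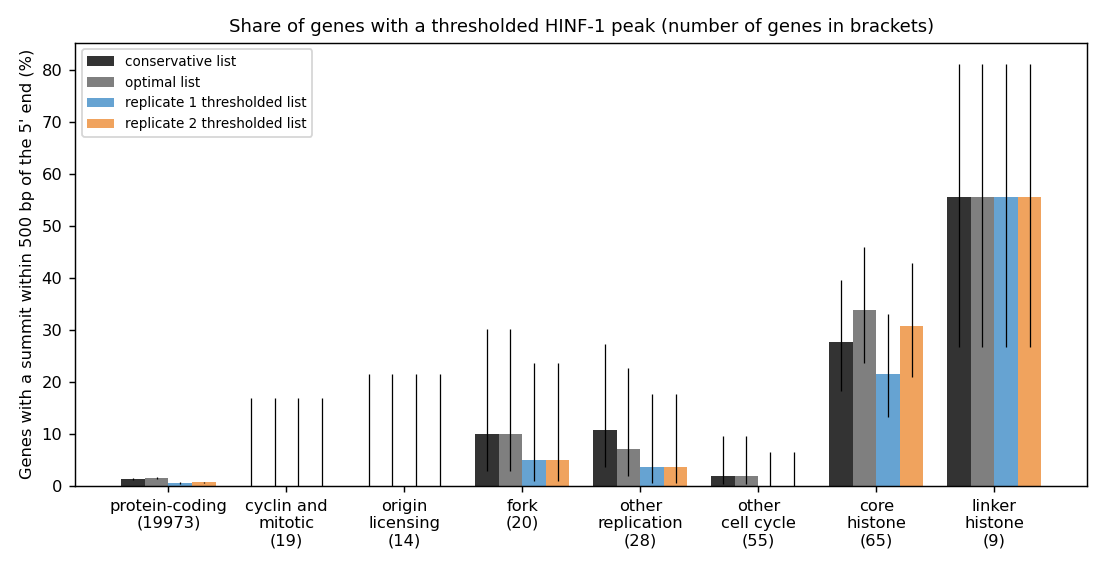
Share of genes (%) whose 5' end has a summit within 500 bp in the 4 thresholded lists, for protein-coding genes and each gene set with its number of genes in brackets; bars start at 0 and lines are Wilson intervals at 95% confidence over genes. Cyclin and mitotic genes and origin licensing genes are at 0 in every list, fork genes reach 10%, and core and linker histone genes reach 33.8% and 55.6%.

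The promoters themselves were searched for motifs of replication and histone genes on both strands, from 250 bp upstream to 50 bp downstream of the 5' end. E2F-like words, TTTCGCGC or TTTGGCGC, occurred at 13 of the 54 members (24.1%), beside 2.05% of protein-coding genes. They were at 12 of the 34 origin and fork genes (35.3%): mcm-3, mcm-4, mcm-5, mcm-6, mcm-7, orc-1, pcn-1, cdc-7, pole-1, rfc-2, rpa-1 and rpa-2. Among the 19 cyclin and mitotic genes cdc-25.2 alone had such a word, and the 65 core histone genes had none. Of the 83 other replication and cell cycle genes 14 (16.9%) had one, with genes of both kinds among them. Within 500 bp either side 18 members (33.3%) had one, 2 of them cyclin and mitotic genes, beside 6.03% of protein-coding genes. In the narrower window the 13 words of the members lay 72 to 247 bp upstream. In the ranked list of the replicates 5 of the 13 lay in a HINF-1 peak, but only that of pcn-1 lay in a conservative one. The words of rpa-1 and mcm-5 lay in no peak of that ranked list, but in peaks of the other ranked list of both replicates. The share of promoter sequence that ranked peaks cover was not counted. Of the 3 called genes, pcn-1 alone had an E2F-like word, 98 bp from the peak's summit. In the stretches below, unlike the summit sequences, only the E2F-like word is in capitals. Other motifs searched stay in lower case there: TTCGAA in pcn-1, mcm-7 and orc-1, TTTGAA in mcm-3 and rfc-2, and the other strand of CGTCCG in mcm-7. Examples are shown to let these stretches be set beside the summit sequences above, on the strand of the gene, 5' to 3', with the word in capitals (GCGCGAAA and GCGCCAAA are the other strand of the same words). They come from IV:4049609-4049656 for pcn-1, V:15059716-15059763 for mcm-3, V:4346998-4347045 for mcm-7, III:10643037-10643084 for orc-1, IV:1347204-1347251 for rfc-2 and V:1566882-1566929 for cdc-25.2, none in an exon; pcn-1 and mcm-3 are on the minus strand and the others on the plus strand.
pcn-1: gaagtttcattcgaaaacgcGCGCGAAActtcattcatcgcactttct
mcm-3: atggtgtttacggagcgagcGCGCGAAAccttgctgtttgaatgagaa
mcm-7: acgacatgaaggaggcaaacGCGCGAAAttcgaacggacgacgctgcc
orc-1: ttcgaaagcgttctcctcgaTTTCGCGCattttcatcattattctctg
rfc-2: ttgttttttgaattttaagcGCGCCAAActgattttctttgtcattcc
cdc-25.2: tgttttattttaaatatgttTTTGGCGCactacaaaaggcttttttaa

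The CHR words TTTGAA or TTCGAA were at 47 of the 54 members (87.0%) and at 69% of protein-coding genes, and so separated members little from protein-coding genes. Core histone genes had them less often, at 8 of 65 (12.3%). Within 500 bp either side the shares were 100% of members, 97.2% of protein-coding genes and 64.6% of core histone genes. The core of the mammalian HINFP site, CGTCCG, occurred at mcm-7 and plk-1 (2 of 54, 3.70%), close to the protein-coding share of 3.14%, beside 20 of the 65 core histone genes (30.8%). In the wider window of 500 bp either side it occurred at 12 members (22.2%), beside 11% of protein-coding genes and 76.9% of core histone genes. None of the members had GGGACACA, a word present at 41 of the 65 core histone genes (63.1%) and at 0.621% of protein-coding genes. These histone shares count each repeated copy of a gene. Within 50 bp of the summits, none of the motifs searched was found at pcn-1, cdc-48.1 or the distal summit of rpa-2, and rfc-4 held TTTGAA, which 17.8% of the 567 conservative summits also held. GGGACACA lay within 50 bp of 17 of the 567 summits (3.00%), CGTCCG of 13 (2.29%), TTTCGCGC of 13 (2.29%) and TTTGGCGC of 4 (0.705%). A match describes the letters only, and its absence says nothing about binding. The his-37 summit at V:9546965-9547065 (plus strand, no exon), the conservative summit nearest to mdf-1, is shown for contrast with the 3 member summits, with TGTGTCCC, the other strand of GGGACACA, in capitals.
his-37: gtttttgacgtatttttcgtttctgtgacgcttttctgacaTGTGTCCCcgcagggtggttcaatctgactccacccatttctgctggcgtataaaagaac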

How the data were processed

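ChIP-seq of GFP-tagged HINF-1 was measured in 2 biological replicates of 1 group. Per the file headers, lists came from filtered alignments of 1 or both replicates on ce11 (WBcel235), the thresholded lists with further inputs whose content is not stated. The caller is not given in the sources used here. The signal value of each peak (column 7) and the summit offset (column 10) are the authors' own, with no stated scaling. The −log10 of the global IDR (column 12) was deposited in the ranked lists, and thresholded peaks took it from the ranked peak with the same coordinates. In the 4 ranked lists, 32 further columns carry no sample name and were not used.

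Summits (1-based, column 2 plus column 10 plus 1) were joined to gene 5' ends of Ensembl release 115, and sequence came from RefSeq's WBcel235. A summit counted for each gene within 500 bp, and a gene took its summit of highest signal. Python 3.11.15, pandas 2.3.3, numpy 2.4.6, scipy 1.17.1 and matplotlib 3.10.9 were used, and the joining step was tested on simulated data. The rule for genes named in full took every member with a thresholded peak, the 10 members of highest ranked signal, the strongest member of each role and members without a ranked summit. It also took the 4 histone genes of highest signal, genes nearer to a member's summit, and other replication or cell cycle genes with a thresholded peak; M04F3.7, icd-2, the genes near cye-1 and inside cdc-48.1, and wrt-5 and eef-1A.1 were named after their values were seen. Members, lists, motifs and alternatives were chosen with earlier results of these data known. No test between conditions and no enrichment test was made.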

Additional observations from a re-analysis of the deposited data

How the results depend on the processing

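Of 55 alternative values, 11 moved by over 1.5 times (counts) or past the Wilson half-width (differences) and 44 did not. Only a difference could be labelled reversed, and 0 were. A fall from 3 to 2 members did not count as moved. For origin and fork against cyclin and mitotic genes the half-width exceeded the difference itself, so its loss did not count as moved either. The tally is therefore no measure of stability. A window of 1000 bp gave 6 members with a conservative peak (pri-1, psf-3 and rpa-2 added) and 7 with an optimal peak (cye-1, a cyclin gene, added as well, as it was by peak overlap), and widened the difference in the conservative list between origin and fork genes (5) and cyclin and mitotic genes (0) from 5.88 to 14.7 percentage points. That difference was lost at a −log10 IDR of 3 (0 and 0 genes) and fell to 0.882 points with cdc-48.1 counted among the cyclin and mitotic genes. It was 2.94 points with 250 bp, with either replicate list alone and with the nearest 5' end alone. A −log10 IDR of 3 or more left 1 member, cdc-48.1, and 0 of the other replication and cell cycle genes. For those other genes, 250 bp gave 2 genes, the nearest 5' end alone (chosen after seeing the data) gave 1, and the replicate lists alone gave 1 and 1. For the members, the replicate lists alone gave 2 and 2, without replicate 1 losing pcn-1 and without replicate 2 losing rfc-4. A window of 250 bp lost pcn-1, and the nearest 5' end alone lost rfc-4. The members' share minus that of core histone genes was -22.1 percentage points, and -44.2 over genes in unique sequence alone (3 of 52 and 2 of 4), and the nearest 5' end alone left 11 of the 18 core histone genes. CGTCCG was found at 12 members (22.2%, protein-coding 11%) within 500 bp either side of the 5' end, beside 2. The number of members in the ranked list ran from 33 to 53. The lists of the single replicates are shorter than the joint lists. No paired analysis was possible because a second group is lacking. Depth is unknown from peak lists, the possible control experiment named in the labels was not used here, and 2 replicates of 1 strain give no measure of differences between conditions.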
